A study of Mus musculus with 12 samples.

Results

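The genes described here are 37 genes of the type I interferon response, followed gene by gene through the livers of 24 h-fasted mice of 3 genotypes. They were taken by symbol from the deposited count table, where all 37 were found among 56748 genes, and all 37 passed the filter on low counts in each comparison. Gene expression had been measured by RNA-seq in 4 livers per genotype. The control livers (WT) came from mice that the labels call CPT1A/1B/2 triple floxed, used as controls, while the study's text sets these KOs against mice floxed for Atf3 and Cpt2, so which floxed line they were could not be settled here. The livers labelled as Cpt2 liver-specific KO (SKO) carry a deletion of Cpt2, a mitochondrial enzyme needed to bring long-chain fatty acids into beta-oxidation. Those labelled as ATF3;CPT2 liver-specific double KO (DKO) carry by their label a deletion of Cpt2 together with one of Atf3, a stress-induced transcription factor, and reads of both genes were still counted in the KO livers, as given with the depth. All mice shared the 24 h fast. The study made its liver KOs by crossing floxed mice, described as C57BL6 lines, to Albumin-Cre mice. Albumin-Cre acts in hepatocytes, and which other cells of the liver keep both genes is not given in the sources used here. The labels give neither age nor sex. Nothing in the labels says more about how the 4 livers of a genotype relate to each other than that they are separate samples, so p-values measure the spread between these samples.

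Type I interferons are secreted proteins that cells make when sensors detect foreign or misplaced nucleic acid. They bind the receptor chains Ifnar1 and Ifnar2, the kinases Jak1 and Tyk2 are activated, and a complex that holds Stat2 and Irf9 enters the nucleus and binds the interferon-stimulated response element (ISRE) in the promoters of target genes. The targets include antiviral effectors, further sensors, regulators that feed back on the pathway and parts of the antigen-presentation machinery. Many of the same genes also answer to interferon gamma, which acts through a different element (GAS). In liver, hepatocytes, Kupffer cells and endothelial cells all carry the receptor, and a low level of these transcripts is present without infection.

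The members lie on 14 chromosomes, with 6 on chromosome 11, 5 each on chromosomes 5 and 16 and 4 on chromosome 19. Promoters were read from RefSeq (GRCm38.p6) as the 250 bases before each start, and 29 of the 37 members had one; those without were Ifi27, Oas2, Usp18, Mx1, Mx2, Parp9, Parp14 and Zbp1. The ISRE core was searched on both strands as a pair of GAAA runs with any 2 bases between them. It was found in 14 of the 29 members (48.3%) and in 3.46% of the 27025 genes with a promoter. A GAS element, searched as TTCNNNGAA on both strands, was found in 7 of the 29 members (24.1%) and in 8.13% of all genes. These matches describe the letters in these windows and were not tested as binding sites. The 120 bases before the start are shown for 3 members with a core, and for Irf7 and Trim25, which had none in 250 bases. Irf7 is shown as a member that was lower in SKO livers and Trim25 as the member that was higher there. Bases are in lower case, 5′ to 3′ on the strand of the gene, and capitals mark the ISRE core on either strand, with overlapping cores run together.
Ifit1 (chr19:34640769-34640888, plus strand): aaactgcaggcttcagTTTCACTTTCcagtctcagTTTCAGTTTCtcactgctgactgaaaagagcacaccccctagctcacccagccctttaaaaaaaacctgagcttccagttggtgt
Isg15 (chr4:156200819-156200938, minus strand): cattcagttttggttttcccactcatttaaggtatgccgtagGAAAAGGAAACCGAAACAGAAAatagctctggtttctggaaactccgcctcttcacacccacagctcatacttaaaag
Irgm1 (chr11:48871421-48871540, minus strand): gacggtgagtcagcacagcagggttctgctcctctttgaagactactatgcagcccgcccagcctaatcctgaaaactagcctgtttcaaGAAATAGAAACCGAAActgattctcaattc
Irf7 (chr7:141266425-141266544, minus strand): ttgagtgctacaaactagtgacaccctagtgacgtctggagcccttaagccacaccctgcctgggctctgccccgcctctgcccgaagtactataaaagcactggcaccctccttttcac
Trim25 (chr11:88999283-88999402, plus strand): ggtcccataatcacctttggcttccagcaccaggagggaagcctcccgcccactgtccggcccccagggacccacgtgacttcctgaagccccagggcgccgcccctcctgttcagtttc
In Ifit1 the cores stand apart, from base −104 to −95 and from −85 to −76 before the start, and both lie on the opposite strand. In Isg15, 3 cores overlap between −78 and −57, and in Irgm1 a pair of cores overlaps between −30 and −15.

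**Figure D1:**
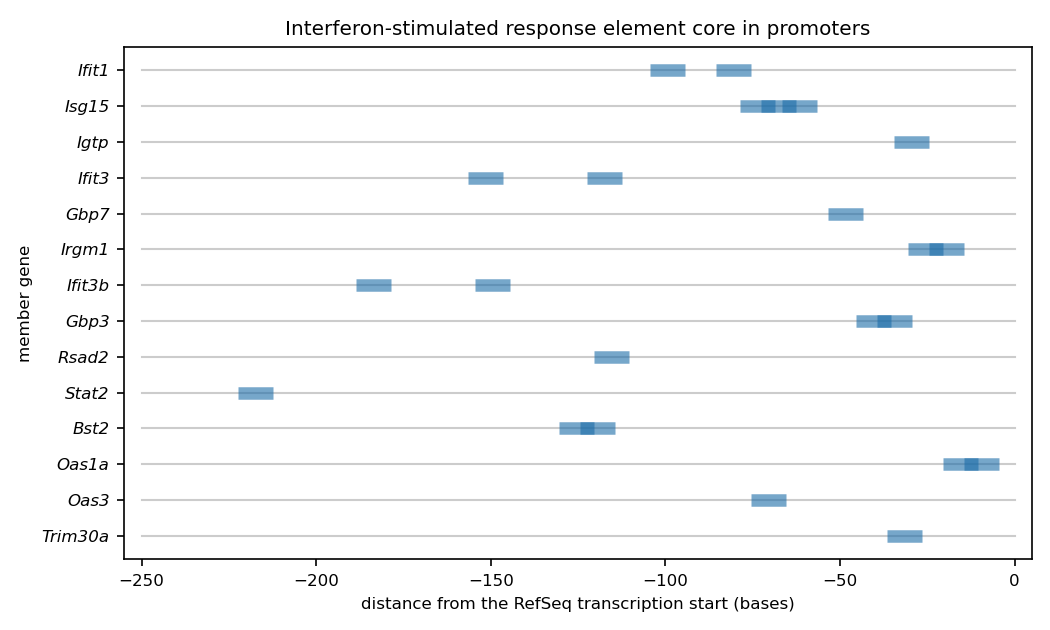
Distance of each ISRE core from the RefSeq transcription start (x axis, bases) in the 14 members that held one (y axis), where grey lines span the 250 bases searched and darker blue marks overlapping cores. The cores of Gbp7 (from −53), Gbp3, Trim30a, Igtp, Irgm1 and Oas1a lie nearest to the start, and that of Stat2 lies farthest away, from −222 to −213.

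Total counts were 14710304 to 20030055 per liver, and a gene with 0 counts could have up to 3 counts, or 0.145 to 0.196 CPM (counts scaled to the TMM library size). No member had a count of 0 in any liver. The lowest member count was 2 for Oas3, and Ifit3b, Ifi44 and Mx1 also fell under 10 counts in at least 1 liver. Cpt2, deleted by label in both KO groups, was at 199 to 252 CPM in WT livers, 108 to 157 CPM in SKO livers and 101 to 127 CPM in those of DKO mice. Atf3 was at 1.11 to 2.16 CPM in WT livers and 14.5 to 53.4 CPM in SKO livers. In the livers labelled DKO it was at 7.92 to 13.6 CPM in replicates 1 to 3, below every SKO liver and above every WT liver, and at 0.270 CPM in replicate 4, below every WT liver. Whether these reads lie in the deleted part of the gene was not tested. In 2 livers, SKO replicate 3 and DKO replicate 4, 18063 and 20855 counts fell on Xist and 2 and 0 counts on 4 Y-linked genes, whereas the other 10 livers had at least 2741 Y-linked counts and at most 19 on Xist. The study describes its RNA-seq mice as male, but the counts of SKO replicate 3 and DKO replicate 4 are those of female livers. The part of sex in the results was not tested. For each member whose fold change against WT is given without DKO replicate 4, the value with all 4 DKO livers is given too.

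Livers labelled as Cpt2 KO had lower levels of most interferon response genes than WT livers after a 24 h fast. The WT label names a triple floxed line that the KO labels do not. In both KO groups a genotype effect and a difference between mouse lines therefore cannot be told apart. In SKO against WT livers, 29 of the 37 members were lower and 1, Trim25, was higher (edgeR, adjusted p under 0.05), while 7 were not called. Over all 14261 genes tested, 15.4% were lower and 16.7% were higher. The median log2 fold change of the members was −1.13, beside 0.031 over all genes tested. In 27 members every SKO liver lay below every WT liver, as it did in 16.6% of all genes tested. The members called lower ranged from Mx2, an interferon-induced GTPase, at −2.71 ± 0.36 (log2, SE) to Ifi35 at −0.53 ± 0.16. The 7 members not called were Ifit2, Oas1a, Oas2, Oas3, Oasl2, Tap1 and Trim30a. With SKO replicate 3 left out, 27 members were lower and 1 higher, beside 15.2% and 17.3% of all genes tested. These are bulk livers, in which fewer cells of a type and less RNA per cell cannot be told apart.

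**Figure D2:**
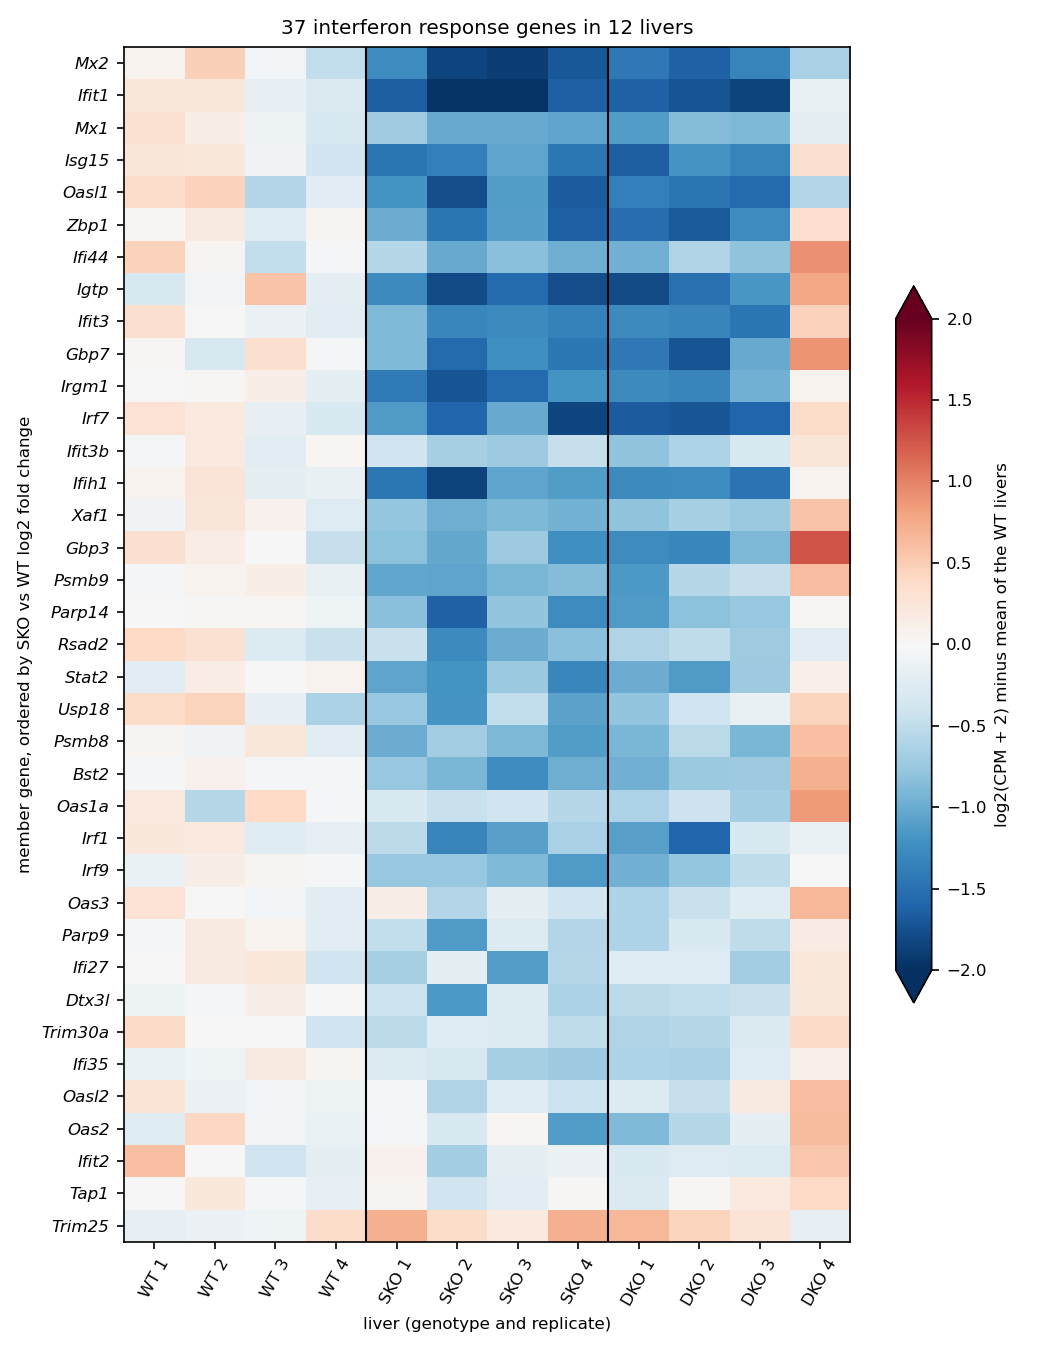
Level of the 37 members (rows) in the 12 livers (columns), as log2(CPM + 2) minus the mean of the 4 WT livers, with members ordered by their SKO against WT log2 fold change. Median differences of the SKO livers were −0.76 to −1.06 and those of DKO replicates 1 to 3 were −0.66 to −0.97, while DKO replicate 4 was at 0.33.

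The transcription factors of the response were lower in SKO livers in all 4 cases. Stat2 and Irf9 are subunits of the complex that binds the ISRE, Irf7 amplifies the production of interferon, and Irf1 acts on interferon-induced and antigen-presentation genes. In the order of replicates 1 to 4, which is kept throughout, Irf7 was at 43.5, 40.7, 31.5 and 28.2 CPM in the WT livers, at 15.1, 10.5, 16.6 and 8.48 CPM in the SKO livers and at 9.81, 9.47, 10.4 and 46.5 CPM in the DKO livers. Every SKO liver and DKO replicates 1 to 3 lay below every WT liver, and DKO replicate 4 lay above every WT liver. The log2 fold change of Irf7 was −1.49 ± 0.22 (SE, edgeR adjusted p = 0.000401) in SKO against WT. In DKO against WT it was −0.91 ± 0.50 (SE, edgeR adjusted p = 0.263) with all 4 DKO livers and −1.85 ± 0.17 (SE, edgeR adjusted p = 1.52e-05) without DKO replicate 4. Stat2 was measured at 65.0, 84.4, 76.5 and 79.6 CPM in the WT livers, at 35.5, 31.9, 44.6 and 29.6 CPM in the SKO livers and at 37.2, 33.6, 45.3 and 81.7 CPM in the DKO livers. The SKO livers and DKO replicates 1 to 3 were all below the WT livers, and DKO replicate 4 was within the WT range. Stat2 had a log2 fold change of −1.09 ± 0.14 (SE, edgeR adjusted p = 0.000187) in SKO against WT. Irf9 stood at 39.2, 46.9, 44.6 and 41.7 CPM in the WT livers, at 24.6, 24.7, 22.3 and 18.5 CPM in the SKO livers and at 21.02, 24.4, 29.5 and 42.7 CPM in the DKO livers. Irf1 had values at 29.8, 29.3, 21.1 and 22.3 CPM in the WT livers, at 17.0, 8.91, 10.9 and 15.3 CPM in the SKO livers and at 10.9, 7.10, 20.1 and 22.9 CPM in the DKO livers. Irf9 and Irf1 had log2 fold changes of −0.92 and −0.96 in SKO against WT, and in both genes no SKO liver reached the WT range. Irf7 spans chr7:140842619-140846394, minus strand (GRCm39, ENSMUSG00000025498) and shares 45 bases with Phrf1 on the other strand, and Irf9 shares 123 bases with Rnf31. The strand used in counting is not given in the sources used here, so reads in such shared stretches cannot be assigned.

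Both sensors of nucleic acid among the members were lower. Ifih1 encodes MDA5, which detects long double-stranded RNA in the cytosol, and Zbp1 encodes a sensor of Z-form nucleic acid. Ifih1 was found at 39.2, 45.3, 32.6 and 33.6 CPM in the WT livers, at 12.5, 8.96, 16.9 and 16.1 CPM in the SKO livers and at 14.3, 14.5, 12.1 and 39.5 CPM in the DKO livers. All SKO livers and DKO replicates 1 to 3 had at most 16.9 CPM, whereas WT livers and DKO replicate 4 had at least 32.6 CPM. Its log2 fold change was −1.45 ± 0.20 (SE, edgeR adjusted p = 0.000201) in SKO, and in DKO livers −0.89 ± 0.35 (SE, edgeR adjusted p = 0.124) with and −1.46 ± 0.14 (SE, edgeR adjusted p = 2.37e-05) without DKO replicate 4. Zbp1 was at 7.13, 8.14, 5.48 and 7.30 CPM in the WT livers, at 2.50, 1.27, 2.17 and 0.893 CPM in the SKO livers and at 1.11, 0.789, 1.75 and 9.29 CPM in the DKO livers. The SKO livers and DKO replicates 1 to 3 were all below the WT livers, and DKO replicate 4 was the highest of the 12. The log2 fold changes of Zbp1 were −2.03 ± 0.31 in SKO against WT and, in DKO against WT, −1.10 ± 0.67 (SE, edgeR adjusted p = 0.303) with and −2.50 ± 0.29 (SE, edgeR adjusted p = 7.49e-05) without replicate 4.

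Of the 3 members of the Isg15 system 2 were lower and 1 was higher in SKO livers. Isg15 encodes a ubiquitin-like protein that is attached to other proteins, Usp18 removes it again and also restrains signaling at the receptor, and Trim25 is a ubiquitin ligase that acts on the RNA sensor RIG-I. Isg15 was measured at 9.26, 9.10, 7.11 and 5.36 CPM in the WT livers, at 1.47, 1.72, 2.59 and 1.51 CPM in the SKO livers and at 1.06, 2.25, 1.80 and 9.88 CPM in the DKO livers. The SKO livers and DKO replicates 1 to 3 were at most at 2.59 CPM, the WT livers were at 5.36 CPM or more, and DKO replicate 4 was the highest of all livers. Isg15 (ENSMUSG00000035692, chr4:156283912-156285253, minus strand, GRCm39) had a log2 fold change of −2.06 ± 0.26 (SE, edgeR adjusted p = 0.000154) in SKO against WT. In DKO against WT it was −1.03 ± 0.60 (SE, edgeR adjusted p = 0.286), and −2.18 ± 0.30 (SE, edgeR adjusted p = 0.000252) without DKO replicate 4. Usp18 was found at 19.4, 20.5, 12.7 and 8.63 CPM in the WT livers, at 7.81, 5.31, 9.78 and 5.92 CPM in the SKO livers and at 7.59, 10.5, 13.0 and 20.6 CPM in the DKO livers. SKO replicate 3 overlapped the WT range of Usp18, as did DKO replicates 2 and 3. Usp18 was lower in SKO at −1.07 ± 0.28 (edgeR, adjusted p = 0.0134), and in DKO it was not called, at −0.23 ± 0.34 with and −0.56 ± 0.29 without replicate 4. Trim25 was at 117, 121, 123 and 168 CPM in the WT livers, at 214, 169, 149.8 and 214 CPM in the SKO livers and at 208, 179, 158 and 116 CPM in the DKO livers. WT replicate 4 lay far above the other WT livers and overlapped the KO groups, and DKO replicate 4 was the lowest of the 12 livers. Trim25 (ENSMUSG00000000275, chr11:88890202-88911119, plus strand, GRCm39) rose in SKO by 0.52 ± 0.16 on the log2 scale (edgeR, adjusted p = 0.0317). That call was lost without SKO replicate 1 or 4 or WT replicate 1, 2 or 3, with adjusted p-values of 0.0751, 0.0780, 0.103, 0.106 and 0.0908, and in a fit of all 12 livers. In DKO livers Trim25 was at 0.34 ± 0.20 (SE, edgeR adjusted p = 0.283), and at 0.47 ± 0.15 (SE, edgeR adjusted p = 0.0312) without replicate 4.

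Of the 8 members that belong to the Ifit family or are small interferon-induced proteins, 7 were lower in SKO livers. Ifit proteins bind foreign RNA and block its translation. Ifit1 stood at 15.2, 15.2, 11.0 and 9.95 CPM in the WT livers, at 2.69, 1.77, 1.76 and 2.73 CPM in the SKO livers and at 2.80, 2.43, 2.06 and 11.2 CPM in the DKO livers. The SKO livers and DKO replicates 1 to 3 all lay below the WT livers, and DKO replicate 4 was within the WT range. Ifit1 (ENSMUSG00000034459, chr19:34618271-34627409, plus strand, GRCm39) had a log2 fold change of −2.51 ± 0.24 (SE, edgeR adjusted p = 2.00e-05) in SKO, of −1.47 ± 0.51 (SE, edgeR adjusted p = 0.0916) in DKO and of −2.39 ± 0.23 (SE, edgeR adjusted p = 2.05e-05) in DKO without replicate 4. Ifit3 was at 12.3, 9.61, 8.61 and 7.85 CPM in the WT livers, at 4.23, 2.63, 2.74 and 2.51 CPM in the SKO livers and at 2.75, 2.61, 2.16 and 13.9 CPM in the DKO livers. Ifit3b was measured at 1.92, 2.54, 1.44 and 2.10 CPM in the WT livers, at 1.02, 0.506, 0.414 and 0.893 CPM in the SKO livers and at 0.290, 0.607, 1.18 and 2.70 CPM in the DKO livers. Ifit3 and Ifit3b fell in SKO at −1.66 and −1.49 (log2), but they share 31.7% and 27.4% of their 100-base stretches with each other, so their counts are uncertain. Ifi44 was found at 4.84, 3.12, 1.5003 and 2.88 CPM in the WT livers, at 1.34, 0.455, 0.776 and 0.502 CPM in the SKO livers and at 0.531, 1.27, 0.823 and 7.29 CPM in the DKO livers. Xaf1 was at 5.15, 6.87, 5.94 and 4.26 CPM in the WT livers, at 2.37, 1.82, 2.02 and 1.90 CPM in the SKO livers and at 2.27, 2.73, 2.47 and 9.18 CPM in the DKO livers. Xaf1 encodes an inducer of apoptosis, and both genes were lower in every SKO liver than in any WT liver, with log2 fold changes of −2.01 and −1.44. Ifi35 had values at 16.8, 17.5, 21.3 and 19.4 CPM in the WT livers, at 15.2, 14.6, 11.1 and 10.4 CPM in the SKO livers and at 11.5, 11.2, 15.3 and 20.1 CPM in the DKO livers. Ifi27 was measured at 75.0, 85.7, 88.9 and 56.9 CPM in the WT livers, at 46.9, 66.6, 34.3 and 50.3 CPM in the SKO livers and at 63.0, 62.9, 45.8 and 88.3 CPM in the DKO livers. The calls of the last pair depended on single livers. Ifi35 (−0.53, edgeR adjusted p = 0.0284) was not called without SKO replicate 3, SKO replicate 4, WT replicate 3 or WT replicate 4, with adjusted p-values of 0.0629, 0.0726, 0.0704 and 0.0617. Ifi27 (−0.61, edgeR adjusted p = 0.0364) was not called without SKO replicate 1, 3 or 4 or without WT replicate 1, 2 or 3, with adjusted p-values of 0.0759, 0.0698, 0.0734, 0.0602, 0.0861 and 0.0842. In a fit of all 12 livers Ifi27, Ifi35, Ifi44 and Ifit3b were not called. Ifit2 was not called in SKO against WT, at −0.42 ± 0.39, and its WT livers, at 5.93, 3.24, 1.96 and 2.54 CPM, overlapped the SKO livers, at 3.52, 1.27, 2.59 and 2.85 CPM.

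The oligoadenylate synthetases, which make a messenger molecule that activates an RNA-degrading enzyme, were mostly not called in SKO livers. Only Oasl1, of the 5 measured in SKO against WT, was lower. Oasl1 encodes a family member without the enzymatic activity that restrains translation of Irf7. Oasl1 was at 13.5, 14.7, 6.13 and 8.52 CPM in the WT livers, at 3.33, 1.57, 3.62 and 1.84 CPM in the SKO livers and at 2.71, 2.43, 2.16 and 6.10 CPM in the DKO livers. All SKO livers and DKO replicates 1 to 3 were below the WT livers, and DKO replicate 4 at 6.10 CPM was below the lowest WT liver, which had 6.13 CPM. Its log2 fold change was −2.04 ± 0.34 (SE, edgeR adjusted p = 0.000914) in SKO, −1.66 ± 0.39 (SE, edgeR adjusted p = 0.0315) in DKO and −2.13 ± 0.31 (SE, edgeR adjusted p = 0.000366) in DKO without replicate 4. Oas1a was measured at 3.12, 1.02, 3.85 and 2.38 CPM in the WT livers, at 1.60, 1.27, 1.40 and 1.00 CPM in the SKO livers and at 0.918, 1.34, 0.772 and 6.05 CPM in the DKO livers. Oas3 was found at 1.92, 1.21, 1.11 and 0.774 CPM in the WT livers, at 1.54, 0.152, 0.828 and 0.446 CPM in the SKO livers and at 0.0966, 0.364, 0.720 and 3.13 CPM in the DKO livers. Oas1a and Oas3 overlapped between SKO and WT, and in DKO with all 4 livers they were not called, at −0.19 and −0.22 (edgeR, adjusted p = 0.881 and 0.882). Without DKO replicate 4 they were lower, at −1.36 and −1.67 (edgeR, adjusted p = 0.0335 and 0.0425). Oas1a shares 40.9% of its 100-base stretches with Oas1g, Oas3 had as few as 2 counts in a liver, and Oas1a in SKO against WT was called once WT replicate 2 was left out, at a log2 fold change of −1.24 (edgeR, adjusted p = 0.0132). Oas2 and Oasl2 had log2 fold changes of −0.47 and −0.51 in SKO against WT and were not called in either KO group against WT.

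The 4 members grouped as effectors at membranes or on entering and budding virus were all lower in SKO livers. Mx1 and Mx2 are genes of the dynamin-like GTPase family, and whether these mice make working protein from them was not examined. Rsad2 encodes viperin, which makes a chain-terminating nucleotide, and Bst2 encodes tetherin, which holds budding virus at the cell surface. Mx2 was at 9.00, 12.5, 8.09 and 5.42 CPM in the WT livers, at 2.37, 0.911, 0.828 and 1.23 CPM in the SKO livers and at 1.88, 1.40, 2.16 and 4.70 CPM in the DKO livers. Mx1 stood at 4.11, 3.37, 2.61 and 1.99 CPM in the WT livers, at 1.02, 0.455, 0.466 and 0.391 CPM in the SKO livers and at 0.290, 0.728, 0.669 and 2.38 CPM in the DKO livers. In both genes all SKO livers and DKO replicates 1 to 3 were below every WT liver, and Mx2 in DKO replicate 4 was below every WT liver. Mx2 had a log2 fold change of −2.71 ± 0.36 (SE, edgeR adjusted p = 0.000194) in SKO, and of −1.77 ± 0.39 (SE, edgeR adjusted p = 0.0259) in DKO with all 4 livers. Bst2 was found at 82.0, 89.6, 82.9 and 81.4 CPM in the WT livers, at 48.9, 43.5, 34.3 and 41.7 CPM in the SKO livers and at 42.3, 49.3, 50.1 and 139 CPM in the DKO livers. Bst2 had the highest level per kilobase of transcript among the members in each genotype, and DKO replicate 4 was above every other liver. It was lower in SKO at −0.98 ± 0.13 (SE, edgeR adjusted p = 0.000163), and in DKO it was at −0.25 ± 0.34 (SE, edgeR adjusted p = 0.672) with and −0.82 ± 0.10 (SE, edgeR adjusted p = 9.94e-05) without replicate 4. Rsad2 was measured at 15.4, 14.3, 8.87 and 7.69 CPM in the WT livers, at 7.69, 3.44, 4.61 and 5.36 CPM in the SKO livers and at 6.67, 7.28, 6.02 and 9.34 CPM in the DKO livers. SKO replicate 1 and WT replicate 4 of Rsad2 were nearly level, and its log2 fold change was −1.13 ± 0.29 in SKO (edgeR, adjusted p = 0.0114).

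All 3 ADP-ribosylation genes were lower in SKO livers, Parp14 by more than the other two. Parp9 and Dtx3l encode partners in a ligase complex, and Parp14 encodes an ADP-ribosyltransferase of macrophages and other cells. Parp14 was at 40.6, 41.1, 41.4 and 37.9 CPM in the WT livers, at 21.6, 11.7, 22.6 and 15.7 CPM in the SKO livers and at 17.2, 21.97, 22.9 and 40.9 CPM in the DKO livers. Parp9 was found at 54.8, 64.3, 59.4 and 48.2 CPM in the WT livers, at 39.3, 24.5, 46.2 and 36.7 CPM in the SKO livers and at 36.1, 45.2, 38.8 and 63.7 CPM in the DKO livers. Dtx3l stood at 57.1, 59.9, 66.6 and 61.9 CPM in the WT livers, at 44.9, 26.7, 50.2 and 38.9 CPM in the SKO livers and at 41.4, 42.9, 44.6 and 72.3 CPM in the DKO livers. Each SKO liver was below each WT liver in these 3 genes, with the smallest gap in Parp9. The log2 fold changes in SKO against WT were −1.16 ± 0.19 for Parp14, −0.61 ± 0.18 for Parp9 and −0.60 ± 0.17 for Dtx3l (edgeR, adjusted p = 0.000659, 0.0204 and 0.0196). Parp9 was not called without WT replicate 2 (edgeR, adjusted p = 0.0607). Parp9 and Dtx3l overlap by 682 bases on opposite strands, so part of their counts may be shared.

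All 4 interferon-inducible GTPases were lower in SKO livers, and Gbp3 had the largest ratio of DKO replicate 4 to the other DKO livers among the members. Guanylate-binding proteins (Gbp3, Gbp7) and immunity-related GTPases (Igtp, Irgm1) act on the vacuoles of intracellular pathogens, and Irgm1 also takes part in autophagy. Irgm1 was at 49.2, 49.6, 53.6 and 42.8 CPM in the WT livers, at 17.0, 13.3, 15.3 and 20.1 CPM in the SKO livers and at 18.8, 18.3, 24.1 and 51.3 CPM in the DKO livers. The WT livers were at 42.8 CPM or more and the SKO livers at 20.1 CPM or less, and DKO replicates 1 to 3 reached 24.1 CPM. Irgm1 (ENSMUSG00000046879, chr11:48752795-48762510, minus strand, GRCm39) had a log2 fold change of −1.56 ± 0.14 (SE, edgeR adjusted p = 1.90e-05) in SKO, the smallest p-value among the members in that comparison. In DKO it was −0.78 ± 0.31 (SE, edgeR adjusted p = 0.124), and −1.25 ± 0.13 (SE, edgeR adjusted p = 3.54e-05) without replicate 4. Igtp was measured at 24.8, 30.1, 47.6 and 27.5 CPM in the WT livers, at 11.9, 7.69, 9.37 and 7.76 CPM in the SKO livers and at 7.68, 9.89, 12.9 and 55.0 CPM in the DKO livers. Gbp3 was found at 11.0, 9.48, 8.28 and 5.59 CPM in the WT livers, at 3.91, 3.14, 4.30 and 2.46 CPM in the SKO livers and at 2.37, 2.19, 3.60 and 22.9 CPM in the DKO livers. Gbp7 stood at 12.0, 9.10, 15.3 and 11.6 CPM in the WT livers, at 5.51, 2.68, 3.93 and 3.07 CPM in the SKO livers and at 3.14, 2.19, 4.84 and 23.9 CPM in the DKO livers. In these 3 genes DKO replicate 4 was the highest of the 12 livers, and the other KO livers all lay below the WT livers. Igtp, Gbp3 and Gbp7 had log2 fold changes of −1.81, −1.30 and −1.65 in SKO, and Gbp3 and Gbp7 were not called there in a fit of all 12 livers. In DKO against WT the 3 genes were not called with all 4 livers, at −0.59, −0.14 and −0.48 (edgeR, adjusted p = 0.527, 0.920 and 0.664). Without replicate 4 they were lower, at −1.67, −1.65 and −1.81 (edgeR, adjusted p = 0.000353, 0.000991 and 0.000473). Igtp overlaps Irgm2 by 7974 bases on the same strand, 5.16% of its 100-base stretches are shared with that gene, and Gbp7 shares 10.0% of its stretches with other genes.

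Among the antigen-processing genes, the immunoproteasome subunits Psmb8 and Psmb9 were lower in SKO livers and the peptide transporter Tap1 was not called. Psmb8 was at 19.7, 18.0, 22.6 and 16.1 CPM in the WT livers, at 8.52, 10.9, 9.21 and 7.70 CPM in the SKO livers and at 9.08, 12.5, 9.11 and 29.98 CPM in the DKO livers. Psmb9 was found at 13.8, 14.9, 15.5 and 12.5 CPM in the WT livers, at 5.89, 5.77, 6.57 and 6.86 CPM in the SKO livers and at 5.31, 8.92, 9.78 and 22.6 CPM in the DKO livers. WT and SKO livers did not overlap in either gene, and DKO replicate 4 exceeded every other liver in both. In SKO against WT the log2 fold changes were −1.06 ± 0.16 for Psmb8 and −1.16 ± 0.15 for Psmb9 (edgeR, adjusted p = 0.000540 and 0.000147). Tap1 ranged from 20.7 to 27.7 CPM in WT and from 17.3 to 24.7 CPM in SKO livers, at a log2 fold change of −0.12 ± 0.15. Psmb9 and Tap1 overlap by 212 bases on opposite strands. Trim30a, a ubiquitin ligase that restrains inflammatory signaling, was at 4.92 to 9.88 CPM in WT and 4.23 to 5.67 CPM in SKO livers and was not called, at −0.53 ± 0.23 (edgeR, adjusted p = 0.103). Without WT replicate 4 it was called at −0.69 (edgeR, adjusted p = 0.0399).

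The DKO livers gave different results with and without replicate 4. With all 4 DKO livers against WT, 2 members were lower, Mx2 (−1.77 ± 0.39, edgeR adjusted p = 0.0259) and Oasl1 (−1.66 ± 0.39, edgeR adjusted p = 0.0315), and 0 were higher by edgeR or by DESeq2, which called 4 members lower. At an unadjusted p under 0.05, edgeR had 10 members, beside 4248 of all genes tested, and DESeq2 11, beside 4401. Over all 14448 genes tested edgeR called 4.39% lower and 6.06% higher, and DESeq2 called 8.58% and 9.66%. The call of Mx2 was lost without any 1 of DKO replicates 1 to 3 or WT replicates 1 to 3, at adjusted p-values from 0.0529 to 0.0834. Oasl1 lost its call without any 1 of DKO replicates 1 to 3 or WT replicates 1, 2 or 4, at adjusted p-values from 0.0653 to 0.0932. Without DKO replicate 4, 29 members were lower and 1, Trim25, was higher, beside 17.5% lower and 18.4% higher of 14634 genes. The median log2 fold change of the members was −0.40 with and −1.001 without that liver, and over all genes it was 0.030 and 0.022. In 28 members DKO replicates 1 to 3 all lay below every WT liver, as they did in 20.7% of all genes tested. The 7 members not called without replicate 4 were Ifi27, Ifit2, Oas2, Oasl2, Tap1, Trim30a and Usp18. SKO and DKO were compared with the same 4 WT livers, so the values against WT stand side by side here and are not independent of each other.

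**Figure D3:**
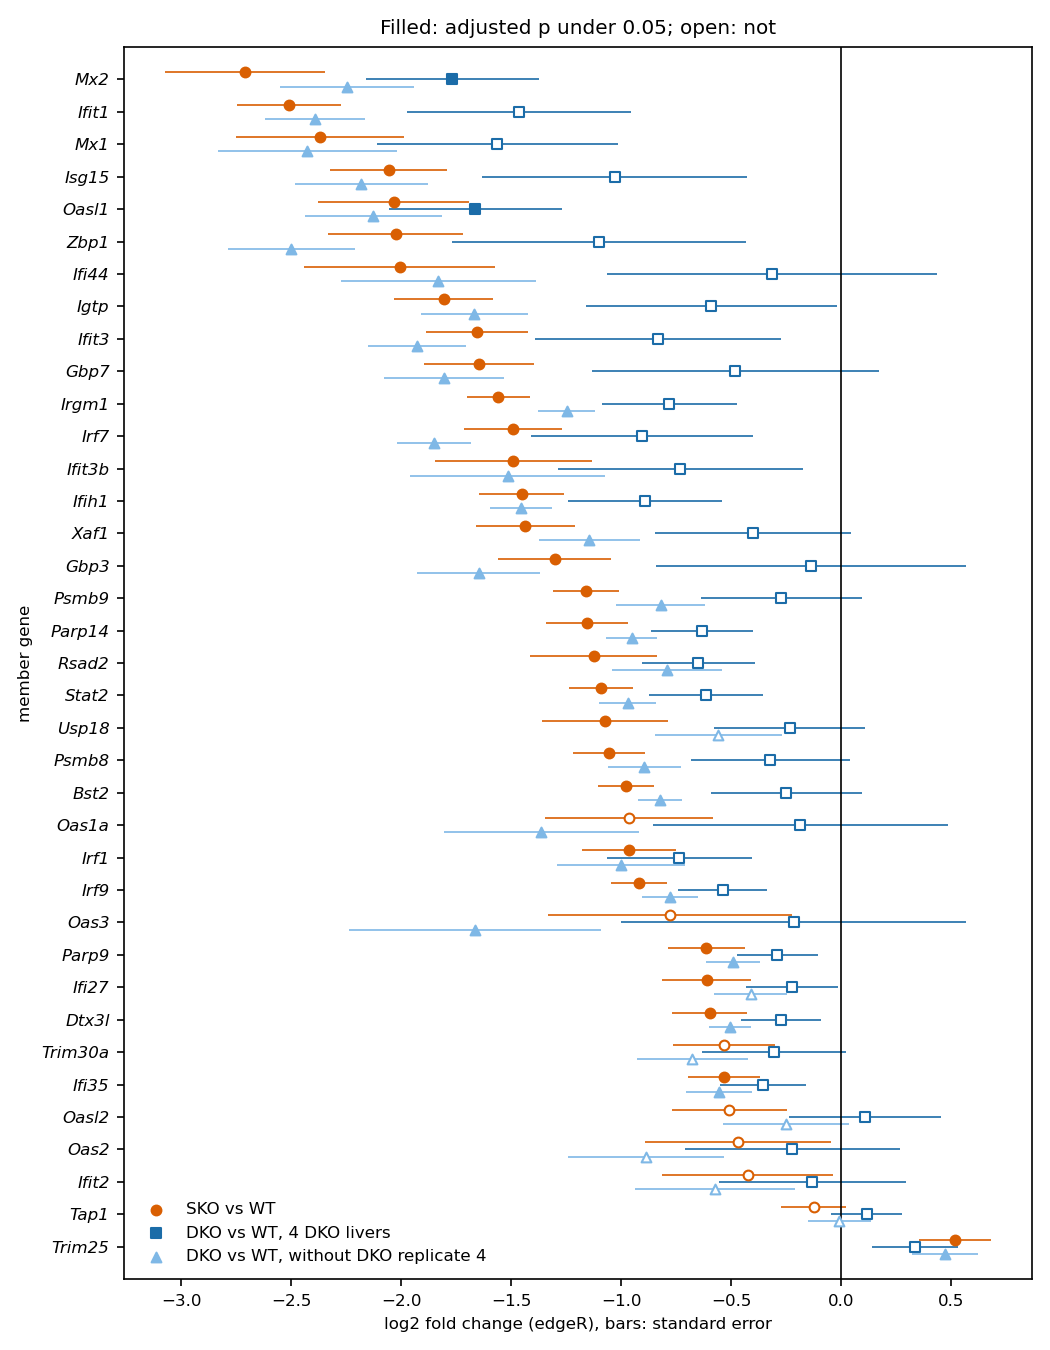
Log2 fold change with SE (x axis) of each member (y axis) in SKO against WT (circles), DKO against WT with 4 DKO livers (squares) and DKO against WT without DKO replicate 4 (triangles), where filled symbols have an edgeR adjusted p under 0.05. All filled symbols lie left of 0 except those of Trim25, and 2 of the squares are filled, those of Mx2 and Oasl1.

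DKO livers were also compared directly with SKO livers, from which they differ by the label in the added deletion of Atf3. Atf3 itself was not called between them, at −1.91 ± 0.73 (SE, edgeR adjusted p = 0.701) with all livers and −1.51 ± 0.37 (SE, edgeR adjusted p = 0.2502) without DKO replicate 4. Against WT livers Atf3 was at 2.38 ± 0.78 (SE, edgeR adjusted p = 0.0796) with that replicate, and it was higher at 2.77 ± 0.28 (SE, edgeR adjusted p = 2.74e-05) without it. None of the 37 members was called, either with all 4 DKO livers or without replicate 4. Over all genes 3 of 14363 (0.0209%) were called with that liver and 15 of 14589 (0.103%) without it. In edgeR 4 members had an unadjusted p under 0.05 with all livers, beside 932 of 14363 genes tested. Without DKO replicate 4 there were 0 such members, beside 1054 of 14589 genes. DESeq2 called 0 members with all livers, beside 97 of 14363 genes. It had 8 members at an unadjusted p under 0.05, beside 1004 genes. DKO and SKO livers overlapped in all 37 members with and without DKO replicate 4, as they did in 96.0% and 92.3% of all genes tested. With all livers the median log2 fold change of the members in DKO against SKO was 0.63, with 36 members above 0. Over all genes tested it was 0.0086, with 48.5% below 0. Without replicate 4 the median of the members was 0.088, with 19 members above 0 and 18 below. Over all genes it was then −0.0045, with 50.7% below 0. The members then ran from −0.89 ± 0.77 for Oas3 to 0.51 ± 0.26 for Usp18, with −0.36 ± 0.24 for Irf7, −0.12 ± 0.36 for Isg15, 0.12 ± 0.18 for Stat2 and 0.12 ± 0.30 for Ifit1. These SE set the limit of what 4 SKO and 3 DKO livers could show, and a missing call does not show that the genotypes were alike.

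DKO replicate 4 stood apart from the other DKO livers in the members. It was above each of them in 36 members, as it was in 34.5% of all genes tested, and Trim25 was the exception. It was above every SKO liver in the same count of members, 36, beside 28.1% of all genes. Against the WT livers it was higher than each of them in 20 members, beside 26.8% of all genes, and below each of them in 3, Oasl1, Mx2 and Trim25, beside 27.8%. In the other 14 it was within their range. The ratio of DKO replicate 4 to the mean of the other DKO livers had a median of 2.83 over the members, from 0.640 in Trim25 to 8.43 in Gbp3. Its ratio to the WT mean had a median of 1.32, from 0.537 in Mx2 to 2.66 in Gbp3. Its gap to the other DKO livers passed Dixon's critical value for 4 values in 17 members, beside 5.65% of all genes. Member reads made up 0.111% of all counts in this liver, 0.0818 to 0.0941% in WT livers, 0.0547 to 0.0710% in SKO livers and 0.0639 to 0.0731% in the other DKO livers. The other liver with Xist counts, SKO replicate 3, was the highest SKO liver in 11 members and the lowest in 6, and its ranks over all genes were not counted.

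**Figure D4:**
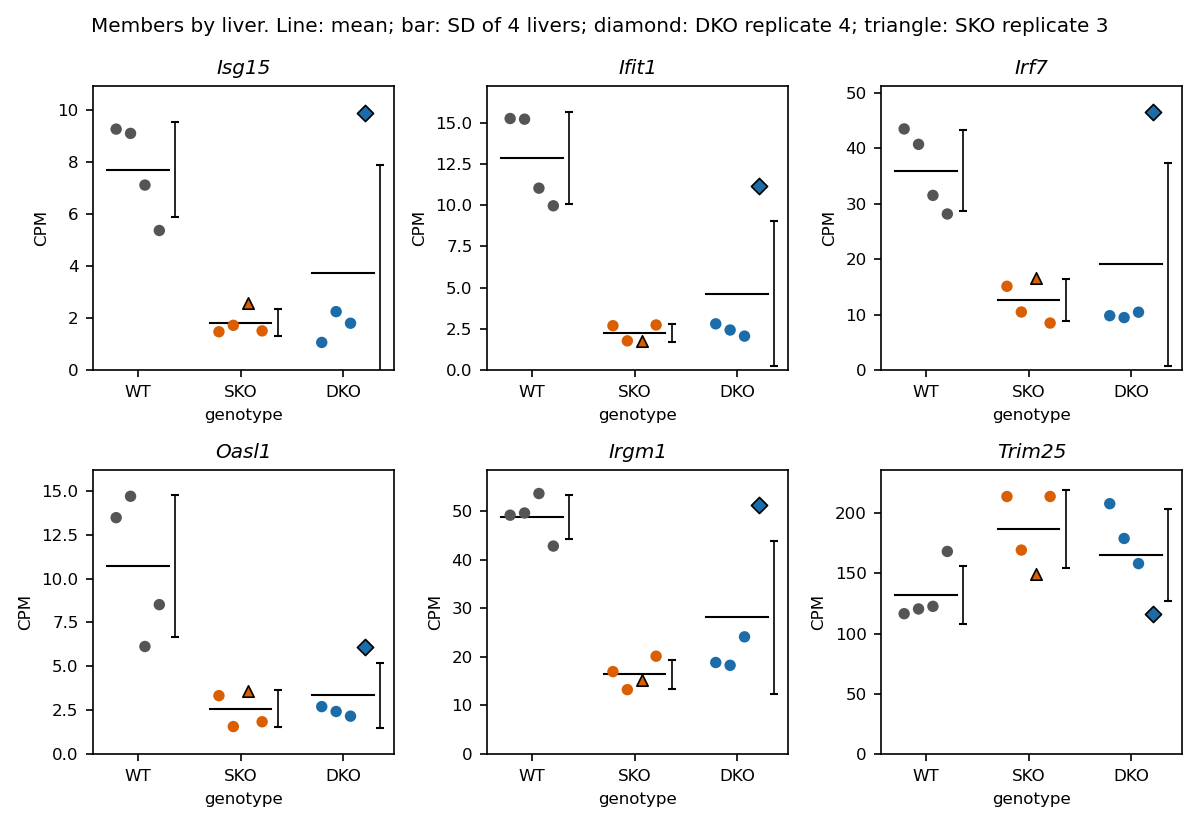
CPM (y axis) of 6 members in each liver by genotype (x axis), with the mean as a line and the SD of 4 livers as a bar that is cut off at 0; the diamond is DKO replicate 4 and the triangle SKO replicate 3. In Isg15, Ifit1, Irf7 and Irgm1 the diamond lies at or near the WT livers while the other DKO livers lie with the SKO livers, and in Trim25 it is the lowest point.

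The spread within a genotype bears on these counts. The SD over the mean had a median over members of 20.3% in WT livers, 26.8% in SKO livers and 64.5% in those of DKO mice, and of 18.1% in DKO replicates 1 to 3. Within WT, replicate 4 was the lowest liver in 20 members and the highest in 1. Within SKO, replicate 1 was the highest in 18 members and replicate 2 the lowest in 18. Among DKO replicates 1 to 3, replicate 3 was the highest in 22 members and replicate 1 the lowest in 19. How often these livers rank this way over all genes was not counted. Per kilobase of transcript, levels in WT livers ran from 0.177 CPM for Oas3 to 93.0 CPM for Bst2, with a median of 4.33 CPM. The same median was 1.71 CPM in SKO livers, 2.77 CPM in DKO livers and 1.67 CPM in DKO livers without replicate 4. The 14 members with an ISRE core had a median log2 fold change of −1.40 in SKO against WT, with 11 of them called lower, and the 15 without one had −0.96, with 11 called lower.

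Hardly any reads were counted on the genes of the interferons themselves in any genotype. Of 21 genes for interferon alpha, beta, epsilon, kappa, zeta, gamma and lambda, 18 had 0 counts in every liver, which allows up to 0.145 to 0.196 CPM per liver. Counts were seen for Ifnk, with 0 to 11 per liver, and for Ifnab and Ifng, with 1 count in all in 1 liver each. None of the 21 passed the filter on low counts. Stretches shared between these genes were not counted here, so reads that fit more than 1 of them may be missing.

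Of 14 receptor, kinase, Stat and suppressor genes 12 were tested in SKO against WT, where 2 were lower and 1 was higher, beside 15.4% and 16.7% of all genes. In DKO against WT 0 were called by edgeR with all 4 livers, with 5 at an unadjusted p under 0.05, beside 4248 of 14448 genes. DESeq2 called 3 lower and 1 higher, beside 8.58% and 9.66% of all genes. Without replicate 4, edgeR called 4 lower and 1 higher, beside 17.5% and 18.4%. Ifnar1, a chain of the type I receptor, was at 50.3, 47.1, 50.2 and 51.4 CPM in WT livers, 64.3, 42.4, 42.0 and 44.2 CPM in SKO livers and 51.6, 50.0, 49.2 and 44.2 CPM in those of DKO mice. Its log2 fold changes were −0.030 ± 0.15 in SKO and −0.018 ± 0.10 in DKO against WT. Ifnar2, the other chain, was at −0.17 ± 0.12 in SKO and −0.37 ± 0.11 in DKO, and it was called without DKO replicate 4 at −0.44 ± 0.10 (SE, edgeR adjusted p = 0.00565). Stat3 was lower in SKO (−0.47 ± 0.13), and Il10rb, shared by the interferon lambda and interleukin-10 receptors, was higher at 0.75 ± 0.20 (edgeR, adjusted p = 0.0154), a call lost without WT replicate 4 (edgeR, adjusted p = 0.0522). Log2 fold changes in SKO were 0.10 ± 0.19 for Ifngr1 and 0.40 ± 0.15 for Ifngr2, the chains of the interferon gamma receptor, and in DKO against WT Ifngr2 was at 0.44 ± 0.14 (SE, edgeR adjusted p = 0.0646) with all livers and higher at 0.53 ± 0.12 (SE, edgeR adjusted p = 0.00511) without replicate 4. Ifnlr1, the specific chain of the lambda receptor, had 2 to 13 counts per liver. The kinases Jak1, Jak2 and Tyk2 were at −0.023, −0.37 and −0.11 in SKO and were not called there.

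**Figure D5:**
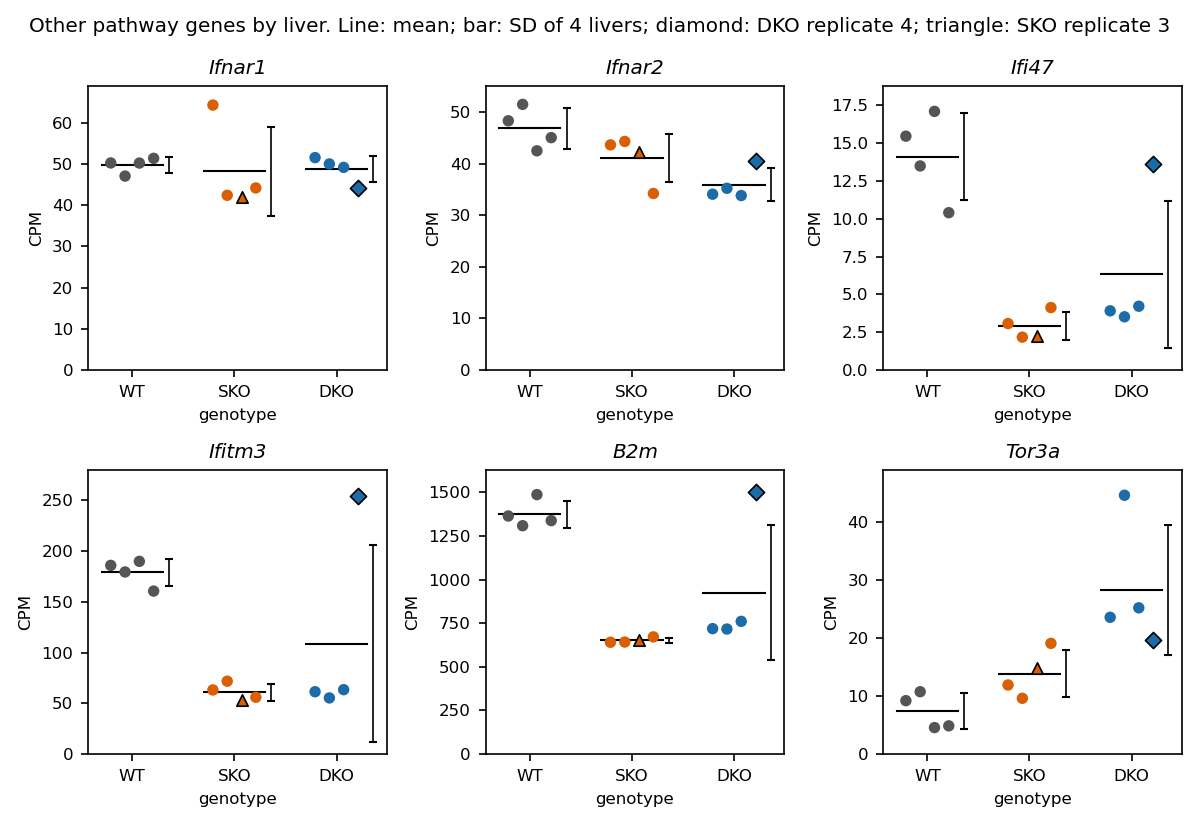
CPM (y axis) of 6 other pathway genes in each liver by genotype (x axis), with the mean as a line and the SD of 4 livers as a bar; the diamond is DKO replicate 4 and the triangle SKO replicate 3. Ifitm3 and B2m place the SKO livers and the other DKO livers below WT and the diamond above, while Ifnar1 overlaps between genotypes and every DKO liver of Tor3a lies above the WT and SKO livers.

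Among sensors, adaptors and further induced genes that are not members, more were lower than higher in SKO livers. Of 17 sensors and adaptors tested, 6 were lower and 1 was higher, and of 68 further induced genes, 28 were lower and 1 was higher, beside 15.4% lower and 16.7% higher over all genes tested. Their median log2 fold changes were −0.29 and −0.56. The 5 with the smallest p-values in SKO against WT among all the other pathway genes were Apol9b (−3.12 ± 0.26), Ifitm3 (−1.54 ± 0.13), Apol9a (−3.09 ± 0.28), Ifi47 (−2.26 ± 0.24) and B2m (−1.06 ± 0.12). Ifitm3, a membrane protein that blocks fusion of entering virus, was at 186, 179.5, 190.0 and 161 CPM in WT livers, 63.2, 71.9, 53.2 and 56.0 CPM in SKO livers and 61.5, 55.4, 63.5 and 255 CPM in those of DKO mice. B2m, the light chain of MHC class I, was at 1364, 1309, 1487 and 1338 CPM in WT livers, 641, 642, 651 and 672 CPM in SKO livers and 719, 717, 761 and 1502 CPM in those of DKO mice. In both genes DKO replicate 4 lay above every WT liver and all other KO livers lay below. Apol9a and Apol9b are near-identical neighbours, so the split of reads between them is uncertain. Against the order of the members, Tor3a and the kinase Tbk1 were higher in SKO, at 0.93 ± 0.30 and 0.38 ± 0.14 (edgeR, adjusted p = 0.0343 and 0.0498). Both calls were fragile. Tbk1 was not called by DESeq2 (adjusted p = 0.0628), with RLE normalization, with no filter on low counts, in a fit of all 12 livers, with the replicate block, or without any 1 of SKO replicates 3 and 4 and WT replicates 1 to 4, at edgeR adjusted p-values up to 0.158. Tor3a was not called in the fit of all 12 livers, with the block, or without SKO replicate 3 or 4 or WT replicate 3 or 4, at edgeR adjusted p-values from 0.0535 to 0.0997.

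In DKO against WT 6 of the 97 other pathway genes tested were lower and 2 were higher with all 4 livers, beside 4.39% and 6.06% of all genes. Without replicate 4, 43 were lower and 6 higher, beside 17.5% and 18.4%. The 5 with the smallest p-values with all livers were Irf5 (−1.24 ± 0.19), Tor3a (1.95 ± 0.34), Trim14 (−1.39 ± 0.26), Rnf213 (−1.0039 ± 0.20) and Ddx58 (−1.25 ± 0.26), the gene of RIG-I. The calls of Trim14 and Rnf213 were lost without any 1 of DKO replicates 1 to 3 or WT replicates 1, 2 or 4, and that of Ddx58 without any 1 of DKO replicates 1 to 3 or WT replicates 1 or 2, at edgeR adjusted p-values from 0.0513 to 0.0724. Without replicate 4 they were Apol9b (−3.14 ± 0.16), Apol9a (−2.88 ± 0.20), Ifitm3 (−1.57 ± 0.11), Ikbke (−1.49 ± 0.14) and Rnf213 (−1.24 ± 0.13). With all livers the first 3 of these were not called, at −1.29, −1.25 and −0.71 (edgeR, adjusted p = 0.302, 0.282 and 0.342), and Ikbke was lower at −1.05 (edgeR, adjusted p = 0.0497), a call lost with the replicate block and without any 1 liver other than DKO replicate 4. Irf5 encodes a factor in macrophage cytokine induction, Ikbke a kinase that activates interferon regulatory factors, and Tor3a a torsin-family ATPase that is induced by interferon. Tor3a was at 9.21, 10.8, 4.57 and 4.87 CPM in WT livers, 11.9, 9.62, 14.8 and 19.1 CPM in SKO livers and 23.6, 44.6, 25.2 and 19.7 CPM in those of DKO mice, and every DKO liver was above every SKO liver. In DKO against SKO 0 of 95 other pathway genes were called by edgeR, with 11 at an unadjusted p under 0.05, beside 932 of 14363 genes tested. DESeq2 called 1 as higher, beside 0.466% of all genes. The smallest p-values belonged to Cmpk2 (1.43 ± 0.37), Tor3a (1.03 ± 0.28), Adar (0.42 ± 0.14), Gbp6 (1.56 ± 0.56) and Trim12c (1.11 ± 0.41). Without replicate 4 the edgeR call count was also 0, with 5 at an unadjusted p under 0.05, beside 1054 of 14589 genes.

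Markers of liver cell types moved with some of these results. The summed level of 5 hepatocyte markers was 70139 to 87862 CPM in WT livers, 37390.5 to 65416 CPM in SKO livers and 40110.1 to 47133 CPM in DKO replicates 1 to 3, and 90805 CPM in DKO replicate 4. Of these markers Alb, Ttr and Serpina1a were lower in SKO (−0.89, −0.89 and −1.52), and Apoa1 and Cps1 were not called (0.23 and −0.026). Most of each sum was Alb. In DKO replicate 4 Alb and Ttr were above every WT liver, at 75234 and 3957 CPM. Apoa1, Cps1 and Serpina1a were below every WT liver there, at 5209, 4804 and 1602 CPM. The 11 Kupffer cell and macrophage markers summed to 273 to 534 CPM in WT livers, 251 to 618 CPM in SKO livers, 162 to 248 CPM in DKO replicates 1 to 3 and 567 CPM in DKO replicate 4. In SKO against WT 1 of the 11, Cd68, was called, as higher (2.28 ± 0.28), and the median log2 fold change of the list was −0.00043. With all 4 DKO livers against WT 1 of the 11 was called, Marco as lower (−1.95), beside 4.39% of all genes. The median was −0.32, and Timd4, Clec4f and Cd68 were at −0.69, −0.25 and 1.09. Without replicate 4, 9 were lower, beside 17.5% of all genes, among them Marco (−2.49), Timd4 (−1.50) and Clec4f (−0.76), Cd68 was higher (1.28), and the median was −0.90. In DKO against SKO 0 of the 11 were called, with a median of −0.42 with all livers and −0.99 without replicate 4. Over all genes 0.0209% and 0.103% were called there. The 12 lymphocyte markers summed to 3.21 to 8.06 CPM in WT livers, 3.57 to 7.30 CPM in SKO livers, 3.19 to 3.76 CPM in DKO replicates 1 to 3 and 9.78 CPM in DKO replicate 4. The 5 markers of plasmacytoid dendritic cells, strong producers of interferon, summed to 16.0 to 24.6 CPM in WT livers, 10.8 to 14.3 CPM in SKO livers, 10.4 to 13.4 CPM in DKO replicates 1 to 3 and 18.4 CPM in DKO replicate 4, and their defining member Siglech was at most 1.82 CPM in any liver. Most of that sum was Tcf4, which other cell types also express, at 14.5 to 21.6 CPM in WT livers and 10.4 to 13.2 CPM in SKO livers. Tcf4 was the only 1 of the 5 that passed the filter on low counts in SKO against WT, where it was not called, at −0.47 ± 0.17 (SE, edgeR adjusted p = 0.0587). In DKO livers against WT it was at −0.42 ± 0.21 (SE, edgeR adjusted p = 0.211) with all livers and lower at −0.60 ± 0.18 (SE, edgeR adjusted p = 0.0216) without replicate 4. Monocyte and neutrophil markers summed to 1.76 to 5.25 CPM in WT and 1.79 to 3.21 CPM in SKO livers. Endothelial markers were at 153 to 333 CPM in WT and 195 to 269 CPM in SKO, stellate cell markers at 173 to 212 CPM and 238 to 338 CPM, and the 4 cholangiocyte markers at 6.39 to 12.1 CPM and 2.54 to 3.59 CPM. In SKO against WT the stellate marker Dcn was called higher (0.61) and the cholangiocyte marker Sox9 lower (−1.87), and no endothelial marker was called. Over all genes 16.7% were higher and 15.4% lower there. No marker was at 0 in all livers. The part of these cell types in the interferon response results was not tested.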

How the data were processed

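For 12 livers the authors deposited unnormalized read counts by gene, with gene lengths in bases per the file headers. The submitters' notes name HISAT2, GRCm38 and mm10, while the deposited gene coordinates are those of a later build: 0 of the 37 members share a start or end with the GRCm38 annotation. They are taken here as GRCm39, which none of these sources names, with promoter windows from GRCm38.p6, and positions were not converted between builds. The counting program and the strand setting are not given in the sources used here. A table of FPKM and tables of the authors' own fold changes and p-values were not used. Samples were grouped by the genotype label, and total counts are given in the results.

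Each pair of genotypes was tested with edgeR 4.0.16 in R 4.3.3 on its 8 livers (TMM, filterByExpr, quasi-likelihood test, two-sided, Benjamini-Hochberg over all genes tested), and a gene was called at an adjusted p-value under 0.05. CPM are counts over TMM library sizes of the 12 livers, and error is the SE of the log2 fold change or the SD over livers. The test was checked on simulated counts. Alternatives were DESeq2 1.42.0, RLE normalization, no filter on low counts, all 12 livers in one fit, the replicate number as a block, each liver left out, and both livers with Xist counts left out. Libraries of a genotype differed by far more than sampling noise (chi-square over its degrees of freedom at least 20.6), so none was a copy. No test was run on a list of genes, and lists are described by counts and medians.

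The members, the roles and the lists of other pathway genes (128 symbols, of which 125 were found in the table) and markers were chosen with earlier results of these data known. Named by rule were all members, every ligand and receptor and the 5 other pathway genes with the smallest p-values per comparison. Stat3, the Jak kinases, Tbk1 and the markers named were picked from the lists for their calls or roles after their values were seen. A gene that the rule named is not reported here. Shared 100-base stretches were counted between transcripts of GENCODE vM21.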

Additional observations from a re-analysis of the deposited data

Results flagged for a closer look

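In the 111 groups of 4 livers formed by 37 members and 3 genotypes, 21 held a liver whose gap to the nearest other passed Dixon's 95% critical value for 4 values, and chance alone gives about 1 in 20, or 5.55. DKO replicate 4 was the highest DKO liver in 17 of the 21. Its values were 9.88 CPM for Isg15, where the other DKO livers reached 2.25 CPM, 11.2 CPM for Ifit1, 5.56 CPM for Ifit2, 13.9 CPM for Ifit3, 7.29 CPM for Ifi44 and 9.18 CPM for Xaf1. In the oligoadenylate synthetase family they were 6.05 CPM for Oas1a and 6.10 CPM for Oasl1. Ifih1 stood at 39.5 CPM, Zbp1 at 9.29 CPM, Irf7 at 46.5 CPM and Bst2 at 139 CPM in this liver. Dtx3l was at 72.3 CPM, Gbp3 at 22.9 CPM, Gbp7 at 23.9 CPM, Igtp at 55.0 CPM and Psmb8 at 29.98 CPM. The members share the same livers, so these 17 are not independent of each other.

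The other 4 lay in different livers. WT replicate 1 was at 5.25 CPM for Oasl2, where the other WT livers had 3.56 to 3.78 CPM, and WT replicate 4 was at 168 CPM for Trim25, where the others had 117 to 123 CPM. SKO replicate 1 was at 4.23 CPM for Ifit3 and at 1.02 CPM for Mx1, where the other SKO livers had 2.51 to 2.74 CPM and 0.391 to 0.466 CPM. The cause of these gaps was not tested.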

How the results depend on the processing

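In SKO against WT the count of lower members stayed within 1.5 times of 29 under RLE normalization, DESeq2, no filter on low counts, all 12 livers in one fit and with any liver left out, with 23 lower in the fit of all 12 livers, where Gbp3, Gbp7, Ifi27, Ifi35, Ifi44, Ifit3b and Trim25 were not called. That fit called 0 members and 1 other pathway gene higher, and over all genes it called 13.1% lower and 13.4% higher. Leaving out 1 liver gave 0 to 1 members and 0 to 4 other pathway genes higher. In DKO against WT DESeq2 called 4 members lower, 4 other pathway genes higher and 12 lower, beside 8.58% lower and 9.66% higher of all genes. Without the filter on low counts 1 other pathway gene was higher, beside 3.33% of all genes. Leaving out 1 liver gave 0 to 1 members higher and 0 to 29 lower, a median of −1.0005 to −0.21, 1 to 6 other pathway genes higher and 1 to 43 lower, where the ends of 29 members and of 43 and 6 other pathway genes came without DKO replicate 4. Without SKO replicate 3 and DKO replicate 4 these were 1 and 29 members, −1.0005, and 6 and 43 other pathway genes. In DKO against SKO DESeq2 called 1 other pathway gene higher. Members whose sign in DKO against WT turned when 1 liver was left out had log2 fold changes of −1.65 to 0.17 for Gbp3, −1.83 to 0.025 for Ifi44, −0.58 to 0.27 for Ifit2, −1.36 to 0.10 for Oas1a, −0.89 to 0.063 for Oas2, −1.67 to 0.17 for Oas3, −0.25 to 0.31 for Oasl2 and −0.0080 to 0.23 for Tap1. In DKO against SKO such ranges were −0.35 to 1.4998 for Gbp3, −0.17 to 1.51 for Gbp7, −0.023 to 0.30 for Ifi35, −0.0055 to 0.76 for Ifih1, −0.15 to 0.49 for Ifit2, −0.27 to 1.11 for Ifit3, −0.029 to 1.10 for Ifit3b, −0.042 to 0.47 for Irf1, −0.36 to 0.83 for Irf7, −0.12 to 1.36 for Isg15, −0.059 to 1.21 for Mx1, −0.40 to 1.09 for Oas1a, −0.42 to 0.55 for Oas2, −0.89 to 1.19 for Oas3, −0.10 to 0.59 for Oasl1, −0.15 to 0.39 for Trim30a and −0.48 to 1.26 for Zbp1. Without SKO replicate 3 and DKO replicate 4 the sign turned in DKO against WT for Oasl2 (−0.25) and Tap1 (−0.0080), and in DKO against SKO for Gbp3 (−0.22), Gbp7 (−0.14), Ifi35 (−0.086), Ifit2 (−0.14), Ifit3 (−0.32), Ifit3b (−0.21), Irf1 (−0.11), Irf7 (−0.20), Mx1 (−0.15), Oas1a (−0.37), Oas2 (−0.19), Trim30a (−0.086) and Zbp1 (−0.34), where 36 members passed the filter. The cause of these changes was not tested.

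Same-numbered livers did not deviate together, with correlations of their deviations from the group means from −0.34 to 0.089 over the 12 pairs, so the numbers pair nothing. With the replicate number as a block, 28 members were lower and 1 higher in SKO against WT, beside 14.3% and 14.6% of all genes. Ifi35 was not called there. In DKO against WT edgeR called 0 members with the block, and 4 other pathway genes lower and 1 higher, beside 2.48% and 2.3% of all genes. In that comparison 14 members had an unadjusted p under 0.05, beside 3969 of 14448 genes. In DKO against SKO 0 members were called with the block, with 2 at an unadjusted p under 0.05, beside 643 of 14363 genes. Depth limits the members with few counts, such as Oas3, Mx1, Ifi44 and Ifit3b, and the limits given for a count of 0 cover counting error only.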
